A study of Mus musculus with 9 samples.

Results

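The regulators of the unfolded protein response examined here are Xbp1, Ern1, Atf4 and Ddit3, and the data are the regions (peaks) at which XBP1 was found on mouse liver chromatin by immunoprecipitation and sequencing. A peak counted as a member where its midpoint lay in a fixed window of genome build mm9 around 1 of the 4 genes: chr11:5400001-5445000 for Xbp1, chr11:106250001-106365000 for Ern1, chr15:80075001-80100000 for Atf4 and chr10:126715001-126745000 for Ddit3. The windows held 59 of the 64078 peaks in 8 lists, and merging of overlapping peaks gave 24 sites. Every liver came from wildtype C57Bl6-J mice, with surgery at 8 weeks of age, and 1 antibody to XBP1, M-186, was used throughout. Silenced mice had been given an adenovirus carrying a short hairpin RNA against XBP1 (shXBP1) 7 days earlier, counted to the hepatectomy where there was one, and their livers were basal, 6 h after partial hepatectomy (PH) or 48 h after it. Unsilenced livers were basal, 6 h or 48 h after partial hepatectomy, or 6 h or 48 h after a sham operation. The virus was given after clodronate liposomes, which deplete phagocytic cells such as Kupffer cells. The protocols also describe a control virus against LacZ, but no label says whether an unsilenced liver received it, or whether a library came from 1 mouse or from several. Each condition had 1 library, so the spread between mice is unknown, and the values describe these libraries only. The input DNA was not analysed here. Peak lists hold no expression values, so the tissue was not checked against marker genes.

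The unfolded protein response restores the balance between protein load and folding capacity in the endoplasmic reticulum. IRE1, the kinase and endoribonuclease encoded by Ern1, senses unfolded proteins and starts the splicing of the Xbp1 messenger RNA, so that the active transcription factor XBP1 is made. A second branch raises translation of ATF4, a transcription factor of amino acid and redox metabolism, which in turn induces Ddit3, the gene of the stress factor CHOP. Liver secretes large amounts of plasma protein and relies on this response. The 4 genes thus encode a sensor and its target in one branch, and a factor and its target in another.

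The sequences before the 4 gene starts are shown because the series title names the unfolded protein response among the programmes of XBP1, a factor known to bind ACGT-containing elements. They are RefSeq sequences of build GRCm38.p6, 250 bases each, 5′ to 3′ on the strand of the gene, and they end at the base before the annotated start. Positions of that build cannot be set against the mm9 positions of the peaks, so which part of a sequence lies under a peak was not determined. Capitals mark each CCACG (the half-site of the endoplasmic reticulum stress element, ERSE) and each ACGT, searched on both strands. The Xbp1 sequence is chr11:5520391-5520640 on the plus strand, the Ern1 sequence chr11:106487797-106488046 on the minus strand, the Atf4 sequence chr15:80254934-80255183 on the plus strand, and the Ddit3 sequence chr10:127290543-127290792 on the plus strand.
Xbp1 promoter: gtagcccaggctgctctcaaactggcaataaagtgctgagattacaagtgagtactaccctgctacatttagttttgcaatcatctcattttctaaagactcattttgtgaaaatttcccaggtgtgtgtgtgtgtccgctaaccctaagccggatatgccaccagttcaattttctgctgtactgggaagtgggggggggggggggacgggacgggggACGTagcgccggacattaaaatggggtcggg
Ern1 promoter: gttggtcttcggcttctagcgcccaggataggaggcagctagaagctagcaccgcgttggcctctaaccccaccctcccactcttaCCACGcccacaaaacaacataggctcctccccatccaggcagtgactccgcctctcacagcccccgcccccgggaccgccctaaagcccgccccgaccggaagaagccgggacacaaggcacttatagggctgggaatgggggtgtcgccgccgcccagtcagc
Atf4 promoter: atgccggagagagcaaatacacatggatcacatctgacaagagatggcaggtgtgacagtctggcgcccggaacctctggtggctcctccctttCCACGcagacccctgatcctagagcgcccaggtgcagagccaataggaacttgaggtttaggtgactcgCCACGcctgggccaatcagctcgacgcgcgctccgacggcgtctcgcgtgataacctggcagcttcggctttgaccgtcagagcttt
Ddit3 promoter: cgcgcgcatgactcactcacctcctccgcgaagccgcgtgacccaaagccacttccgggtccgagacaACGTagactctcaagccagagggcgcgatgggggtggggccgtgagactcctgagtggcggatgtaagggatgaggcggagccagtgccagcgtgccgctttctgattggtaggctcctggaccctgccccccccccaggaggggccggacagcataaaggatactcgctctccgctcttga

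The Xbp1 sequence had an ACGT at 31 to 28 bases before the start and no CCACG. The Ddit3 sequence had an ACGT at 182 to 179 bases before the start and no CCACG. The Ern1 sequence had a CCACG at 164 to 160 bases before the start, and the Atf4 sequence had CCACG at 156 to 152 and at 87 to 83 bases. Neither Ern1 nor Atf4 had an ACGT in this stretch. Both short motifs are common. CCACG was present in 28.3% and ACGT in 26.9% of the 32851 promoter sequences of the same length.

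Only exact matches were searched for. None of the 4 sequences held an exact full ERSE (CCAAT and CCACG separated by 9 bases), which 0.113% of all sequences held. On its other strand the Ddit3 sequence held CCAAT and, after 9 bases, a stretch that differs from CCACG in 1 base. Such near matches were not counted in all sequences, so an ERSE that departs from the exact form is not excluded. None of the 4 held ERSE-II (ATTGG and CCACG separated by 1 base, 0.0304% of all), TGACGTGG (0.563%), TGACGTGA (0.35%) or GCCACGT (2.02%). The element bound by ATF4 with C/EBP partners, written TGATGNAA (3.45%), and the cyclic AMP element TGACGTCA (1.55%) were not found either. ACGT lies within TGACGTGG, TGACGTGA, GCCACGT and TGACGTCA, and CCACG lies within ERSE, ERSE-II and GCCACGT and, on the other strand, within TGACGTGG. Of 17 other genes of the response, 16 had a promoter sequence in the table, Atf6 being the one without. CCACG occurred in 11 of the 16 and ACGT in 6. The full ERSE occurred in 4, those of the chaperone genes Hspa5 and Hsp90b1, the co-chaperone gene Dnajc3 and the ubiquitin ligase gene Syvn1, and ERSE-II in that of Herpud1. Peaks near these genes were not counted, since no gene annotation of build mm9 was at hand.

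XBP1 peaks lay in the windows of Xbp1, Atf4 and Ddit3 in each of the 5 unsilenced livers, whereas the Ern1 window carried peaks only in the unsilenced livers 6 h after surgery. The Xbp1 window alone carried a peak in all 8 lists. Over the 4 windows, silenced basal liver had 2 peaks, or 1.13% of its list, and basal liver 4, or 0.161%. At 6 h the windows held 5 peaks in silenced PH liver (0.116% of the list), 16 in PH liver (0.0725%) and 22 in sham liver (0.0953%). At 48 h they held 1 peak in silenced PH liver (0.98% of the list), 5 in PH liver (0.0693%) and 4 in sham liver (0.0865%). The lists themselves differed in length, from 102 peaks in silenced PH liver at 48 h to 23087 in sham liver at 6 h, and the read depth behind them is unknown. Bulk liver was used, so fewer cells with a bound site and less binding per cell cannot be told apart.

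**Figure D1:**
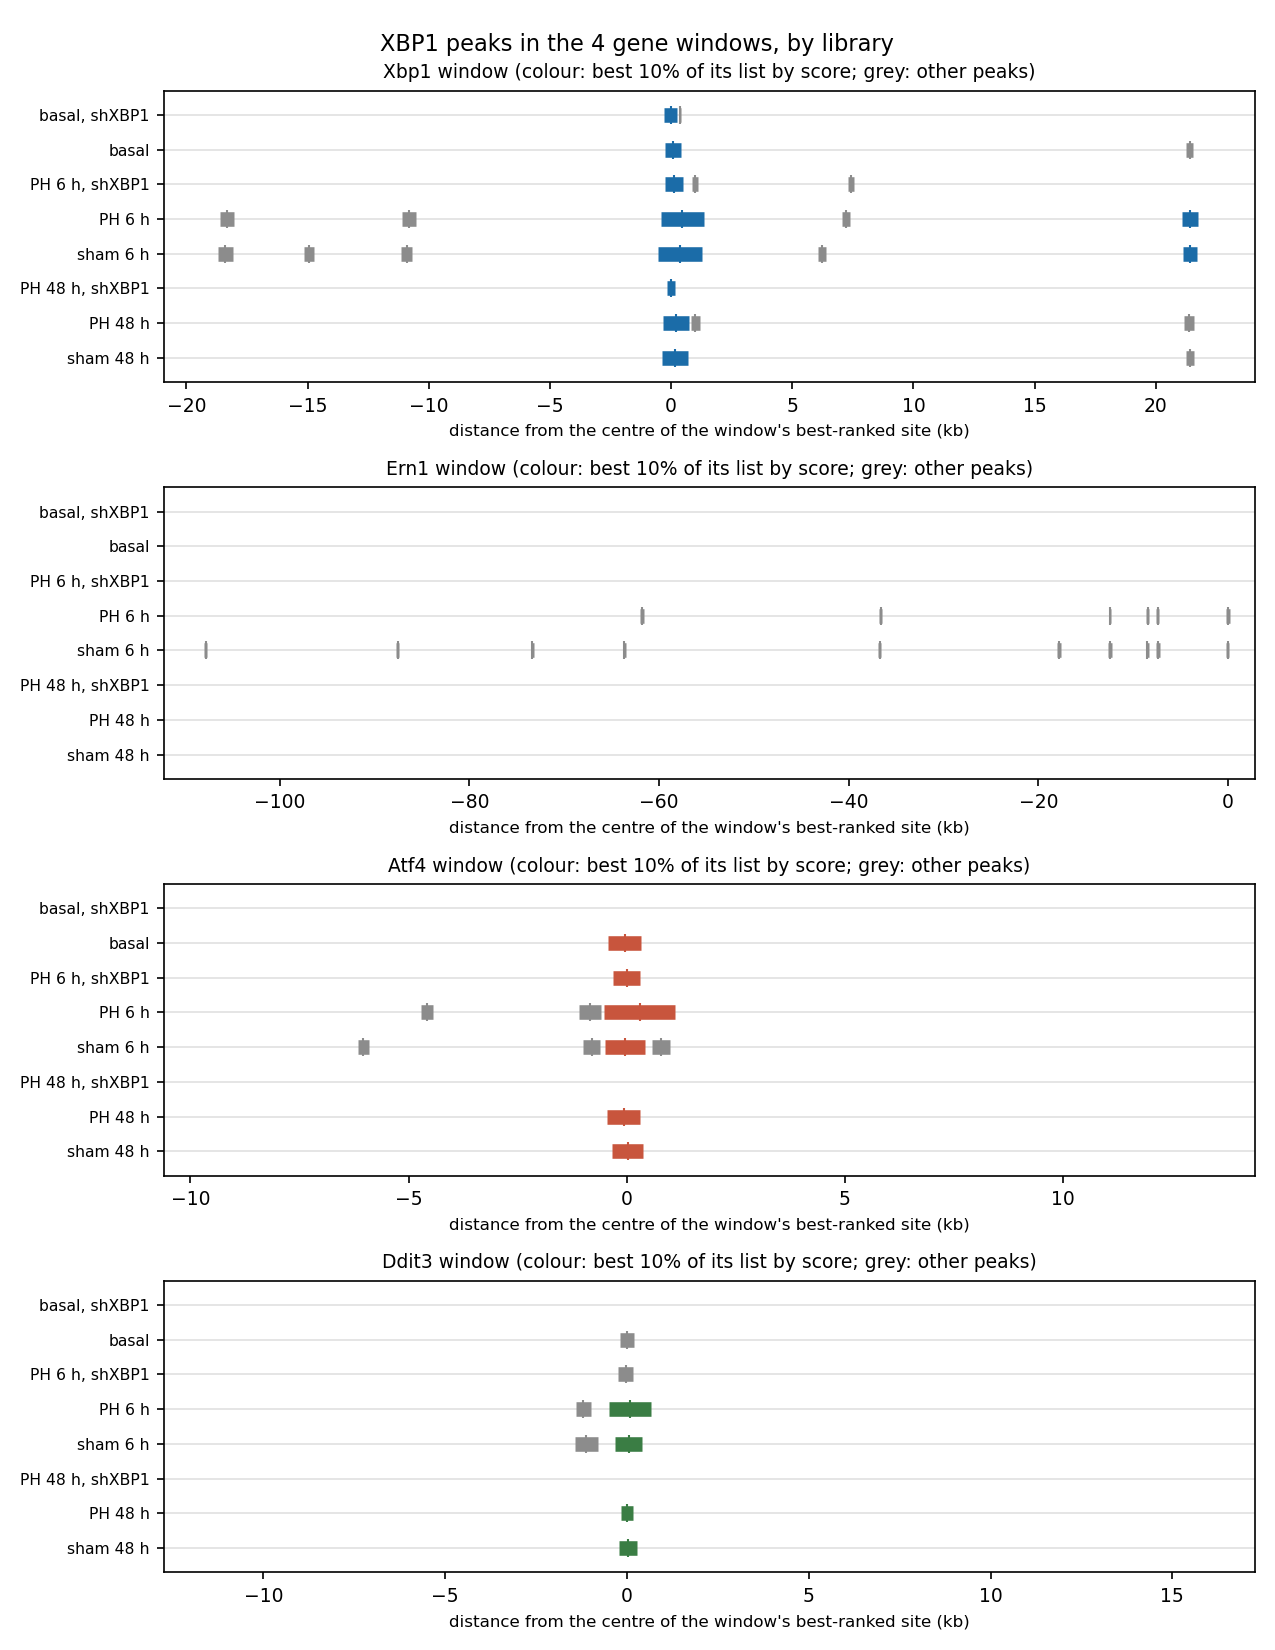
Peaks in each gene window by library, drawn at their width against the distance in kb from the centre of the best-ranked site of the window. Coloured peaks were in the best 10% of their list by score and grey ones were not; 1 site near the centre of the Xbp1 window was present in all 8 lists, and Ern1 peaks appeared only in PH and sham liver at 6 h.

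The density of peaks in the windows can be read against the whole lists. In the Xbp1 window of 45 kb, PH liver at 6 h had 5 peaks and sham liver at 6 h had 6. Of all non-overlapping tiles of that width along the genome, 1.1% held at least 5 peaks in that PH list and 0.706% at least 6 in that sham list. In basal liver the Xbp1 window had 2 peaks, as many or more being found in 0.373% of tiles. The Atf4 window of 25 kb had 3 peaks in PH liver and 4 in sham liver at 6 h, and 1.85% and 0.84% of tiles held at least as many. The Ddit3 window of 30 kb had 2 in each of these lists, against 5.76% and 6.09% of tiles with at least 2. These shares describe the windows, which were chosen for their genes and with earlier results of these data known. The tiles were not matched for genes, and the shares are no test.

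Xbp1 is both the gene of the precipitated factor and the target of the silencing, and its window held the best-ranked site of the 4 genes. The hairpin acts on the messenger RNA, which peak lists do not measure, so they give no check of the silencing itself. The main Xbp1 site spanned chr11:5420383-5422277, and the stretch common to all 8 lists was chr11:5420748-5421083, 336 bp long. Merging of the 8 lists gave 28177 regions, and this site was among the 53 with a peak in all of them. The protein-coding neighbours of Xbp1 in the GRCm38 annotation are Znrf3 and Ccdc117, and no site was assigned to an exon, intron or untranslated part.

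At the main Xbp1 site the score in silenced basal liver was 24.21, at rank 11 of 177 peaks, and in basal liver 223.54, at rank 23 of 2482. Rank 1 is the highest score of a list, and scores are comparable only within a list. At 6 h the score was 184.03 in silenced PH liver, at rank 30 of 4325, 525.14 in PH liver, at rank 53 of 22071, and 187 in sham liver, at rank 127 of 23087. At 48 h the score was 22.91 in silenced PH liver, at rank 3 of 102, 150.93 in PH liver, at rank 40 of 7212, and 476.65 in sham liver, at rank 7 of 4622. The site was therefore among the best 1% of ranks in all 5 unsilenced lists and in the silenced list at 6 h, and at 6.21% and 2.94% of the silenced basal and silenced 48 h lists.

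The main Xbp1 site was wide. Its highest-scoring peak measured 1786 bp in PH liver and 1825 bp in sham liver at 6 h, where the median peak had 429 bp and 412 bp, and 0.245% and 0.134% of the peaks were at least as wide. In basal liver it measured 671 bp. At 48 h it measured 1053 bp in PH liver and 1100 bp in sham liver. In silenced liver it measured 542 bp in the basal state, 769 bp at 6 h and 336 bp at 48 h. The region carried a second, separate peak in 3 lists: a score of 8.5 in silenced basal liver (chr11:5421261-5421318), 8.97 in silenced PH liver at 6 h (chr11:5421794-5422040) and 12.67 in PH liver at 48 h (chr11:5421733-5422114).

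A further Xbp1 site, at chr11:5441987-5442641, was present in all 5 unsilenced lists and in no silenced list. Its midpoint lay from 20929.5 bp to 21324.5 bp from that of the main peak, toward higher coordinates. Its score was 13.34 in basal liver, at rank 1290. At 6 h it was 116.88 in PH liver, at rank 1087, and 54.22 in sham liver, at rank 1649. At 48 h it was 23.91 in PH liver, at rank 1071, and 15.83 in sham liver, at rank 2032. The 5 lists differ in length, so these ranks are not compared between them. Of all regions, 324 had this pattern of lists.

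Of the remaining Xbp1 sites, that at chr11:5402230-5402881 lay above the median score of both unsilenced 6 h lists (19 in PH and 16.32 in sham liver). The others lay below the median of every list that held them. The sites at chr11:5402230-5402881 and chr11:5409789-5410385 were called in both unsilenced 6 h livers only, with scores of 30.84 in PH and 26.13 in sham liver at the first and 9.25 in PH and 13.19 in sham liver at the second. Sites at chr11:5405780-5406177 and chr11:5426972-5427298 were called in sham liver at 6 h only, with scores of 12.19 and 8.44. The site at chr11:5427950-5428473 had a score of 8.01 in silenced PH liver and 7.77 in PH liver at 6 h, and no peak elsewhere. These 2 peaks were among the last 6% of ranks in their lists, at 94.1% and 95.9%.

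The Ern1 window, which covers 115 kb, had no site near the top of any list. PH liver at 6 h had 6 peaks there and sham liver at 6 h had 10, on 11 sites in all. No Ern1 peak was called in basal liver, in either liver at 48 h or in any silenced liver. Tiles of this width held a peak in 33.8% of cases in the PH list and 34.4% in the sham list at 6 h, and at least 6 and 10 peaks in 4.19% and 0.944%. In basal liver 8.86% of such tiles held a peak, and at 48 h 19.2% did in PH and 14.1% in sham liver. In silenced liver 0.529% of such tiles held a peak in the basal state, 13.7% at 6 h and 0.371% at 48 h. An empty window was thus the usual case in all these lists.

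Scores in the Ern1 window were low. In PH liver 1 of the 6 peaks lay above the median score of the list (19), and in sham liver 3 of the 10 lay above theirs (16.32). The strongest site, at chr11:106361976-106362377, had a score of 50.44 in PH liver, at rank 3521 or 16% of the list, and 26.13 in sham liver, at rank 5815 or 25.2% of the list. The next in rank, at chr11:106354546-106355047, had 12.91 in PH liver and 19.61 in sham liver. Sites at chr11:106288655-106289003 and chr11:106254228-106254553 were called in sham liver only, with 17.59 and 14.14, and that at chr11:106300189-106300562 in PH liver only, with 15.26. The other 6 sites had scores from 7.97 to 13.84. Both lists shared 5 sites, which is 5 of the 6 PH peaks and 5 of the 10 sham peaks. All 16 peaks were between 249 bp and 502 bp wide. Icam2 and Tex2 are the neighbours of Ern1 in the GRCm38 annotation.

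Atf4 carried 1 strong site, at chr15:80085086-80086716, which was called in all 5 unsilenced livers and in silenced PH liver at 6 h. Its score was 105.9 in basal liver, at rank 77 of 2482. At 6 h it was 66.73 in silenced PH liver, at rank 172 of 4325, 448.44 in PH liver, at rank 84 of 22071, and 167.48 in sham liver, at rank 173 of 23087. At 48 h it was 132.3 in PH liver, at rank 60 of 7212, and 114.15 in sham liver, at rank 122 of 4622. All 6 ranks were within the best 4% of their list. The stretch common to the 6 lists was chr15:80085291-80085914, 624 bp long.

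The Atf4 peak was 1631 bp wide in PH liver and 919 bp in sham liver at 6 h. In sham liver a separate peak with a score of 11.98 lay beside it (chr15:80086174-80086601), within the span of the PH peak. The other Atf4 sites were called at 6 h in unsilenced liver only. That at chr15:80084503-80085013 had a score of 26.94 in PH and 11.98 in sham liver. Sites at chr15:80080881-80081159 in PH liver (9.69) and at chr15:80079433-80079699 in sham liver (10.58) were each found in 1 list. Atf4 lies between Mief1 and Rps19bp1 in the GRCm38 annotation.

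Ddit3 showed the same pattern of lists as Atf4, with lower ranks. Its main site, at chr10:126727225-126728387, had a score of 24.5 in basal liver, at rank 498 of 2482. At 6 h it had 30.15 in silenced PH liver, at rank 654 of 4325, 224.77 in PH liver, at rank 386 of 22071, and 145.27 in sham liver, at rank 249 of 23087. At 48 h it had 47.12 in PH liver, at rank 375 of 7212, and 54.34 in sham liver, at rank 326 of 4622. The stretch common to the 6 lists was chr10:126727559-126727903, 345 bp long.

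The main Ddit3 peak was 1163 bp wide in PH liver and 737 bp in sham liver at 6 h, and between 348 bp and 482 bp in the other 4 lists. At least as wide were 2.53% of all peaks in that PH list and 10.5% in that sham list. In the other 4 lists, from 23.5% to 33.9% of all peaks were at least as wide. A second Ddit3 site, at chr10:126726292-126726922, was called in both unsilenced 6 h livers, with scores of 13.84 in PH and 21.13 in sham liver. Mbd6 and Mars1 are the protein-coding genes next to Ddit3 in the GRCm38 annotation. The pattern shared by the main Atf4 and Ddit3 sites, a peak in all lists but silenced basal and silenced 48 h liver, was that of 1409 of the 28177 regions.

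**Figure D2:**
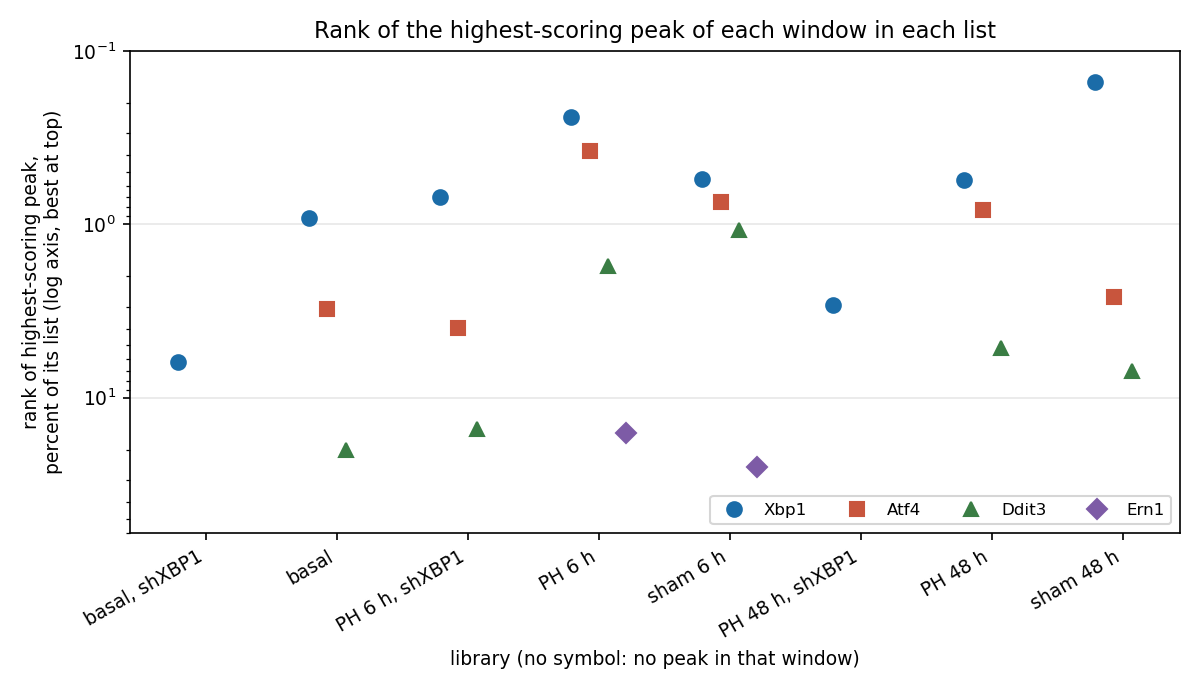
Rank of the highest-scoring peak of each window, as a percent of its list on a log axis with the best ranks at the top, for each of the 8 libraries; a missing symbol means no peak. Xbp1 stood above Atf4 and Atf4 above Ddit3 in the 6 libraries with all 3, and Ern1 was lowest in the 2 in which it was called.

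Xbp1, Atf4 and Ddit3 kept one order within lists. In the 6 lists that held peaks of Xbp1, Atf4 and Ddit3, the highest score was at Xbp1, followed by Atf4 and then Ddit3, in 6 of 6. Ern1 followed them in both lists with an Ern1 peak. The lists share the genome and the antibody, and the order is given as a description.

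**Figure D3:**
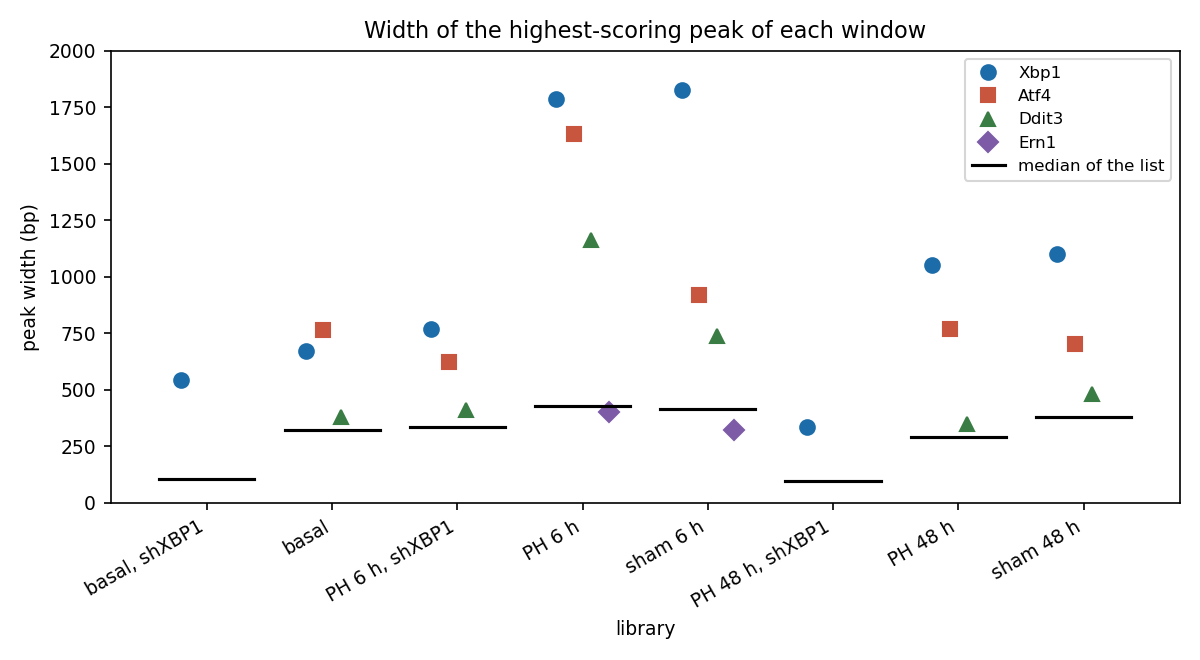
Width in bp of the highest-scoring peak of each window in the 8 libraries, with the median width of each whole list as a black line. Xbp1 peaks lay above the median in all 8 libraries, Atf4 and Ddit3 peaks in all 6 in which they were called, and both Ern1 peaks lay below it.

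Each silenced liver was set against its unsilenced counterpart, and in each state the main Xbp1 site was found in both lists. Of the 4 basal peaks in the windows, 1 was overlapped by a peak of silenced basal liver, that of the main Xbp1 site, beside 4.75% of all basal peaks and 39.4% of those in the best 10% of ranks. The main Atf4 peak, also in the best 10%, had no counterpart in silenced basal liver, nor had the Ddit3 peak. At 6 h after hepatectomy, 4 of the 16 PH peaks were overlapped by a peak of silenced liver, beside 18.9% of all PH peaks. Those 4 were the main Xbp1, Atf4 and Ddit3 sites and the weak Xbp1 site at chr11:5427950-5428473. Of the 4 PH peaks in the windows that were in the best 10% of ranks, 3 were kept, beside 87.6% of all PH peaks so ranked, and the one not kept was the Xbp1 site at chr11:5441987-5442641.

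At 48 h, 1 of the 5 PH peaks was overlapped by a peak of silenced liver, again the main Xbp1 site, beside 0.915% of all PH peaks and 8.03% of those in the best 10%. The Atf4 peak, at rank 60, and the Ddit3 peak had no counterpart. Silenced liver held no peak in the windows outside sites of the unsilenced liver: 2 of 2 peaks in basal, 5 of 5 at 6 h and 1 of 1 at 48 h lay on an unsilenced peak of the same state. Of all silenced peaks, 89.3% in basal liver, 98.2% at 6 h and 76.5% at 48 h did so. With so few peaks the shares are close to undetermined, with Clopper-Pearson 95% intervals from 0.631% to 80.6% in basal liver, 7.27% to 52.4% at 6 h and 0.505% to 71.6% at 48 h. The lists of silenced basal and silenced 48 h liver were short (177 and 102 peaks) and narrow (medians of 103 bp and 94 bp). Set against silenced liver at 6 h instead, 3 of 4 basal peaks had a counterpart, beside 71.1% of all basal peaks, and 4 of 5 peaks of PH liver at 48 h did, beside 42.6% of all PH peaks at 48 h. Where 50% of both peaks had to overlap, none of the 16 at 6 h had a counterpart in silenced liver of the same state, beside 11.8% of all PH peaks, and none of the 5 at 48 h, beside 0%.

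**Figure D4:**
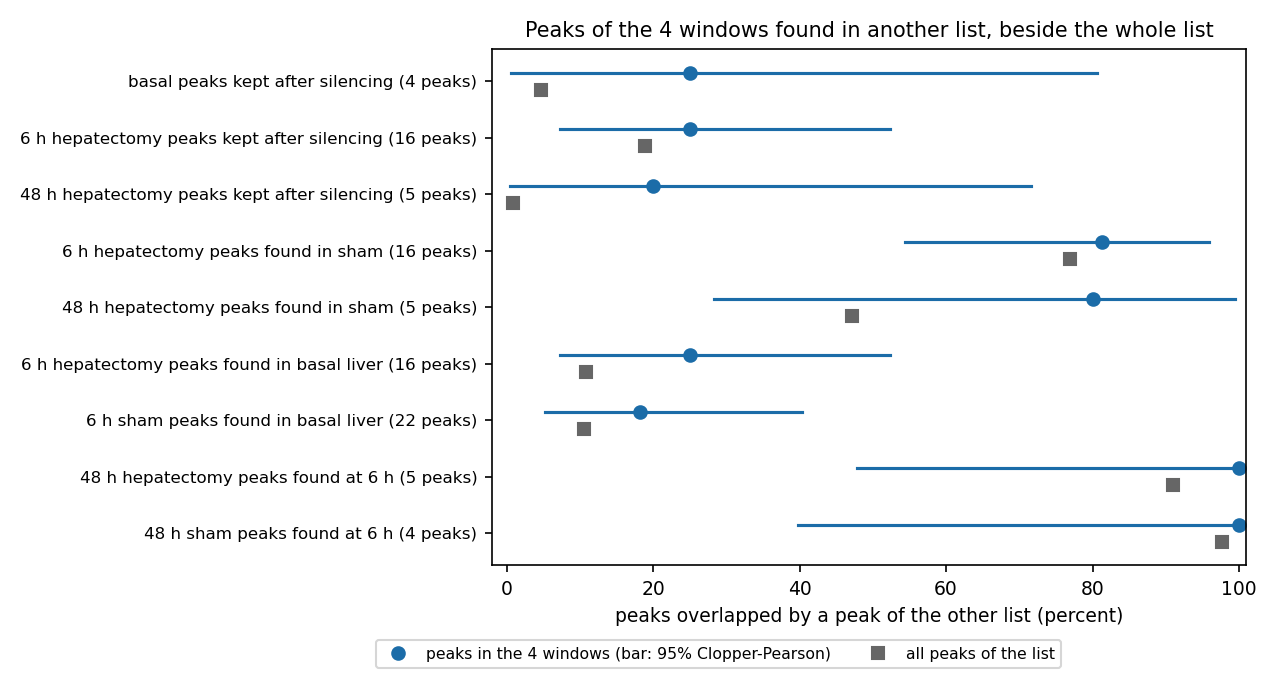
Percent of the peaks in the 4 windows that overlap a peak of the other list (circles, with Clopper-Pearson 95% intervals) and of all peaks of the same list (squares), for the 9 comparisons. The squares lie inside the interval of the circles in all 9.

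At 6 h, 13 of the 24 sites were called after both hepatectomy and sham operation and 11 after one of them only, and for Ern1 5 of 11 sites were called after both. The same split of all regions is not given here. Of the 28177 regions, 8731 were called in both unsilenced 6 h lists and no other. The PH list of 6 h alone held 4711 and the sham list of 6 h alone held 5514. Of the 16 PH peaks 13 were found in sham liver, beside 76.9% of all PH peaks, and 14 of the 22 sham peaks were found in PH liver, beside 74.1% of all sham peaks. The 3 PH peaks without a sham counterpart were weak sites of Xbp1, Ern1 and Atf4, with scores of 7.77, 15.26 and 9.69. At 48 h, 4 of the 5 PH peaks were found in sham liver, beside 47.1% of all PH peaks, and 4 of 4 sham peaks were found in PH liver, beside 72.5% of all sham peaks. The one PH peak without a counterpart was the second peak of the main Xbp1 site. The whole-list shares lay within the counting error of the shares of PH peaks in the windows at both times, and 5 peaks are too few to read at 48 h.

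At 6 h further sites were called in the windows beside the 4 sites of basal liver, none of them in the best 10% of ranks. Of the 16 PH peaks at 6 h, 4 were found in basal liver, beside 10.9% of all PH peaks at 6 h, and these were the 4 in the best 10% of ranks, where 63.7% of all PH peaks were found in basal liver. Of the 22 sham peaks at 6 h, 4 were found in basal liver, beside 10.5% of all sham peaks and 60.2% of those in the best 10%. In both lists they were the main sites of Xbp1, Atf4 and Ddit3 and the Xbp1 site at chr11:5441987-5442641. The 4 basal peaks were all found again at 6 h in PH and in sham liver, beside 98.3% of all basal peaks in PH and 98.4% in sham liver.

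At 48 h the windows held only the 4 sites that were also called in basal liver. The share of all 48 h peaks found in basal liver is not given here, so this is not read as particular to the windows. All 5 PH peaks at 48 h were found at 6 h after hepatectomy, beside 91% of all PH peaks at 48 h, and all 4 sham peaks at 6 h after the sham operation, beside 97.7%. The 5 PH peaks are not all separate sites, since the main Xbp1 peak and the second peak beside it lay under the same PH peak of 6 h. In the other direction, 4 of the 16 PH peaks of 6 h were found at 48 h, beside 28.9% of all PH peaks of 6 h, and 4 of the 22 sham peaks, beside 19.4% of all sham peaks. No Ern1 peak of 6 h was among them. When each list was limited to as many of its highest-scoring peaks as basal liver has, the windows held 4 peaks in PH and 4 in sham liver at 6 h, as in basal liver. Of the 24 sites, 19 (79.2%) were called in unsilenced 6 h livers alone, beside 67.3% of all 28177 regions. List length moves with this count, as both 6 h lists are the longest, and its part in the result was not tested.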

How the data were processed

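The deposited data used here were 8 peak lists, 1 per XBP1 library of mouse liver, with chromosome, start, end, name and score. The score was deposited by the authors as 1 value per peak. Its scale is not given in the sources used here, and the lowest score of a list lay between 4.33 and 5.27. The submitters' processing notes name Bowtie2, MACS 1.4.2 and build mm9. Settings, the use of the input and read depth are unknown here. Per the labels' protocols chromatin was sonicated to about 300 bp, which limits how closely a peak places a site.

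Groups were taken from sample titles. Peaks with a midpoint in the 4 windows were taken and ranked within their list (ties at the lowest rank). Overlap meant at least 1 bp, and sites were merged over all 8 lists. Tiles ran over chromosomes 1 to 19 and X up to the last peak. With 1 library per condition no p-value was computed, and intervals are Clopper-Pearson and cover counting error only. They treat peaks of the same site as separate. Every site was named where a window held at most 8 sites. For Ern1 the 5 best ranks in any unsilenced list were named. Promoter motifs were exact matches in RefSeq sequences (GRCm38.p6). Python 3.11.15, NumPy 2.4.6, pandas 2.3.3, SciPy 1.17.1 and matplotlib 3.10.9 were used, and overlap counts were checked with bedtools 2.31.1 and on lists with a known overlap. Alternatives were other overlap rules, score and list-length limits, wider windows and merging. Comparing basal and 48 h liver with the silenced 6 h library was chosen after seeing the data. The members, windows and gene lists were chosen with earlier results of these data known.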

Additional observations from a re-analysis of the deposited data

Results flagged for a closer look

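Between hepatectomy and sham, 3 values had opposite signs at 6 h and 48 h: the number of peaks in the windows and the rank shares of the main Xbp1 and Ddit3 peaks. Each condition had 1 library, and whether the times differ was not tested. At 6 h the 4 windows held 16 peaks after hepatectomy and 22 after sham, a difference of -6. At 48 h they held 5 after hepatectomy and 4 after sham, a difference of 1. As a share of the list the windows held less after hepatectomy at both times, at 6 h 0.0725% in PH liver and 0.0953% in sham liver, and at 48 h 0.0693% in PH liver and 0.0865% in sham liver. The rank of the main Xbp1 peak, as a percent of its list, differed by -0.31 percentage points between hepatectomy and sham at 6 h and by 0.403 at 48 h. The rank itself at 6 h was 53 in PH liver and 127 in sham liver, and at 48 h it was 40 in PH liver and 7 in sham liver. The rank of the main Ddit3 peak, as a percent of its list, differed by 0.67 percentage points at 6 h and by -1.85 at 48 h. Its rank itself was higher in number in PH liver at both times, at 6 h 386 in PH liver and 249 in sham liver, and at 48 h 375 in PH liver and 326 in sham liver. The lists differ in length, so neither ranks nor rank shares show a change in binding.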

How the results depend on the processing

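No paired analysis was possible because each condition had 1 library. Of 70 values under alternatives, 55 stayed within 1.5 times (numbers of peaks or sites) or within the interval (shares). The intervals are wide, so this count says little about the shares. The share of basal peaks kept after silencing was 25%, and 75% with silenced liver of 6 h in its place still counted as within the interval. Limited to scores of at least 2 times the lowest of the list, the windows held 1 peak in silenced basal liver and 3 in silenced PH liver at 6 h. Merging of peaks within 500 bp left 1 peak in silenced basal liver. Limited to as many highest-scoring peaks as basal liver has, the windows held 3 peaks in silenced PH liver, 4 in PH liver and 4 in sham liver at 6 h. This limit removes weak peaks by construction. Where 50% of both peaks had to overlap, 0 of 16 PH peaks (0%) were kept after silencing at 6 h, beside 11.8% of all PH peaks. At 48 h 0 of 5 (0%) were kept, beside 0% of all. Under the same rule 0 of 16 PH peaks of 6 h (0%) were found in basal liver, and 2 of 5 PH peaks of 48 h (40%) were found at 6 h. With midpoints within 250 bp the last share was also 40%. Unlike widths lower these shares by construction. Between equal numbers of highest-scoring peaks, 3 of 5 PH peaks of 6 h (60%) were kept after silencing. With that limit 4 of 4 PH and 4 of 4 sham peaks of 6 h (100%) were found in basal liver. No share of all peaks is given for this limit, for midpoints within 250 bp, or for the 50% overlap between unsilenced livers. Those values are therefore not read as particular to the windows. With silenced liver of 6 h in its place, 80% of the PH peaks of 48 h were kept. With 1 to 22 peaks per list, shares are coarse, and unknown read depth limits every absence.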
